A study of Mus musculus with 6 samples.

Results

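The genes described here are 10 plasma membrane amino acid transporters that cells use under amino acid stress, taken by symbol from tables of 35485 genes: Slc7a1, Slc7a3, Slc7a5, Slc7a11, Slc3a2, Slc1a4, Slc1a5, Slc38a1, Slc38a2 and Slc6a9. They were measured by RNA-seq in whole retinas of wild type C57BL/6 mice at 12 weeks of age, 2 days after surgery in which the optic nerve was only exposed (sham) or was also pinched with forceps for 10 seconds, 2 mm behind the globe (optic nerve crush, ONC). Each group had 3 samples, and each sample was a pool of RNA from 6 retinas of 6 mice, so that the errors below refer to pools and not to single mice. An SD below is the spread of the 3 pools, while an SE comes from the edgeR fit, which estimates variation with the help of all genes. The crush injures the retinal ganglion cells (RGCs), a small share of the retina's cells, at their axons, while the measured RNA came from all of its cells. In such bulk samples, a change in the number of cells of a type and a change in the RNA per cell cannot be told apart.

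Neurons and glia take up amino acids through carriers of the solute carrier (SLC) families. Some exchange one amino acid for another, others move them with sodium, and a few need a partner protein to reach the membrane. When amino acids run short or unfolded proteins collect in the endoplasmic reticulum, kinases phosphorylate the translation factor eIF2 alpha, and the transcription factor ATF4 is then made. ATF4 is known to raise the transcription of several of these carriers together with amino acid synthesis enzymes, through DNA elements that it binds with C/EBP proteins.

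After ONC, 5 of the 10 transporters were higher by the criteria used for differentially expressed genes (DEGs), which were a fold change above 1.5 in exon reads and a Benjamini-Hochberg adjusted p under 0.1 by the quasi-likelihood test of edgeR. Of all 13670 genes tested, 0.827% were DEGs in that direction. The 10 transporters were chosen with earlier results of these data known, so this count is a description and not separate evidence. The 5 were both cationic amino acid transporters Slc7a1 and Slc7a3, the light chains Slc7a5 and Slc7a11, and the neutral amino acid exchanger Slc1a4. Their folds lay between 1.66 and 2.49. Slc3a2 and Slc38a2 were higher by 1.22-fold and 1.25-fold and passed the adjusted p alone, which made 7 of 10 against 2.38% of all genes. Slc1a5, Slc38a1 and Slc6a9 did not pass, and no transporter of the 10 was a DEG in the lower direction. The median log2 fold change was 0.52 over the 10 transporters and 0.01 over all genes tested. All 10 were above a mean RPKM (a read count scaled by exon length and by the mapped reads of the sample) of 0.3 in both groups, so none entered the test through 1 group alone.

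**Figure D1:**
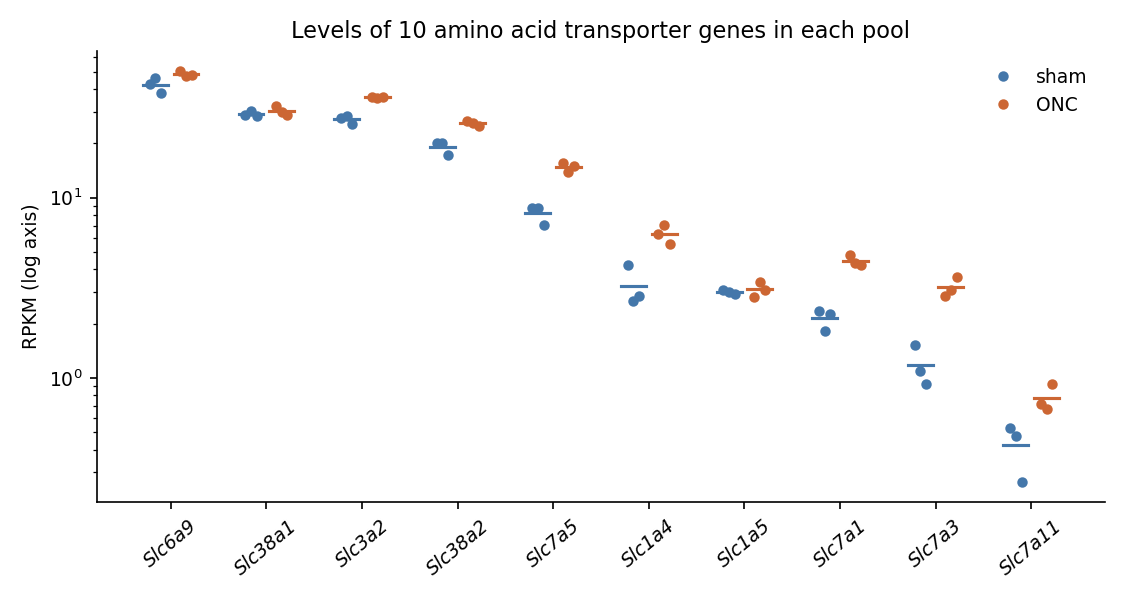
RPKM of the 10 transporter genes in each pool, on a log axis, in order of the sham mean. Points are pools (3 sham, 3 ONC) and short lines are group means. The groups are apart for 8 genes and overlap for Slc38a1 and Slc1a5.

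The levels spanned about 2 orders of magnitude. In sham retinas Slc6a9 was highest, with a mean of 42.3 RPKM, and Slc7a11 lowest, with 0.423 RPKM. Between them stood Slc38a1, Slc3a2, Slc38a2, Slc7a5, Slc1a4, Slc1a5, Slc7a1 and Slc7a3, in falling order. The values of Slc38a1 and Slc3a2 overlapped, as did those of Slc1a4 and Slc1a5, and other neighbours in the order were apart. In ONC retinas Slc3a2 stood above Slc38a1, Slc1a4 and Slc7a1 above Slc1a5, and Slc7a3 beside Slc1a5 with overlapping values. The DEGs were thus 5 of the 6 genes below Slc38a2 in the sham order, and Slc1a5 was the exception. RPKM values of all ONC pools lay above those of all sham pools for 8 of the 10 genes, a pattern held by 25.4% of all genes tested. The deposited RPKM is divided by all reads on genes, introns included, and exons held 70.86% to 76.6% of those reads in sham pools and 78.48% to 80.44% in ONC pools. On exon reads scaled by the trimmed mean of M values (TMM), the groups were apart and higher in ONC for 7 of the 10, against 11.0% of all genes tested, and Slc6a9 then overlapped.

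The cationic amino acid transporters carry arginine, lysine and ornithine without sodium. Slc7a1 encodes CAT-1, the broadly expressed member, and occupied chr5:148327410-148399904 in the file coordinates, which match GRCm38, with 13 exons of 7179 bases in all. It measured 2.36, 1.82 and 2.25 RPKM in the sham pools and 4.8, 4.33 and 4.23 RPKM in the ONC pools. Each ONC pool was well above the highest sham pool. The log2 fold change was 0.93 (SE 0.12, 95% interval 0.68 to 1.18), with an edgeR adjusted p of 4.48e-05. Slc7a3 encodes CAT-3, the member known from neurons, and lay at chrX:101079221-101085352. It had 1.52, 1.09 and 0.931 RPKM in sham and 2.85, 3.08 and 3.64 RPKM in ONC, from 54 to 83 exon reads per sham pool and 171 to 224 per ONC pool. The groups were apart. Its log2 fold change of 1.32 (SE 0.21, 95% interval 0.87 to 1.76, edgeR adjusted p = 0.00064) was the highest estimate of the 10, although its interval overlapped that of Slc7a1. The remaining member of this subfamily, Slc7a2 (CAT-2), had 2.36 RPKM ± 0.433 in sham and 2.65 ± 0.0787 in ONC (SD, n = 3), with a log2 fold change of 0.05 and an edgeR adjusted p of 0.876.

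Summed over Slc7a1, Slc7a2 and Slc7a3, the cationic transporters gave 6.27, 5.7 and 5.1 RPKM in sham and 10.3, 9.97 and 10.6 RPKM in ONC. Slc7a3 made up 24.3%, 19.2% and 18.2% of that sum in sham and 27.6%, 30.9% and 34.4% in ONC. The shares were apart, but the ratio of Slc7a3 to Slc7a1 overlapped between groups, with a difference in log2 ratio of 0.4 (two-sided exact permutation test, p = 0.3, adjusted p = 0.3 over 5 ratios). It was 0.2 without sham 3 and 0.26 without ONC 3. With 3 pools against 3 the exact permutation test cannot go below p = 0.1.

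Slc3a2 encodes the 4F2 heavy chain (CD98), a glycoprotein that carries no substrate itself and brings the light chains of the SLC7 family to the cell surface. Slc7a5 encodes the light chain LAT1, which takes up leucine and other large neutral amino acids in exchange for intracellular ones and feeds mTORC1 signalling. Slc7a11 encodes xCT, which imports cystine for glutathione synthesis and releases glutamate. At chr8:121881146-121907686, Slc7a5 had 8.74, 8.78 and 7.08 RPKM in sham and 15.6, 13.8 and 14.9 RPKM in ONC. The lowest ONC pool was far above the highest sham pool, and the log2 fold change was 0.73 (SE 0.09, 95% interval 0.55 to 0.91, edgeR adjusted p = 2.23e-05). Slc3a2 lay at chr19:8706882-8723369. Its values were 27.5, 28.4 and 25.6 RPKM in sham and 36.1, 35.8 and 36.2 RPKM in ONC. The groups were apart and the ONC pools nearly equal. The log2 fold change of 0.29 (SE 0.06, 95% interval 0.16 to 0.41, edgeR adjusted p = 0.00845) was under the fold threshold, and so was the whole of its interval.

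Slc7a11 had the lowest level per length of the 10 and passed the test by a narrow margin. The gene lay at chr3:50364936-50443613 and had 112, 105 and 60 exon reads in sham and 168, 154 and 222 in ONC, or 0.528, 0.475 and 0.266 RPKM against 0.719, 0.671 and 0.927 RPKM. The groups were apart, with sham 3 lowest and ONC 3 highest. The log2 fold change was 0.76 (SE 0.22, 95% interval 0.29 to 1.23), with an edgeR adjusted p of 0.0654. Without sham 2, sham 3 or ONC 3 the adjusted p was 0.149, 0.277 or 0.313, and limma on log2(RPKM + 0.1) gave 0.164, so this DEG call depends on single pools and on the test, whereas those of Slc7a1, Slc7a3, Slc7a5 and Slc1a4 were kept in each of the alternatives tried.

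**Figure D2:**
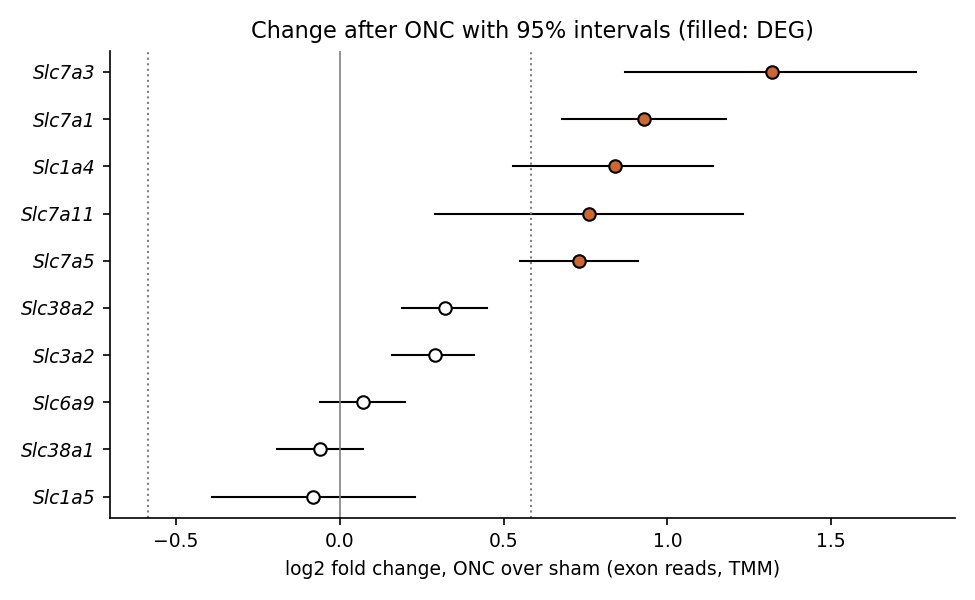
Log2 fold change of each transporter, ONC over sham, from TMM-scaled exon reads (edgeR), with 95% intervals. Filled points are the 5 DEGs, dotted lines mark the fold threshold of 1.5, and the intervals of Slc6a9, Slc38a1 and Slc1a5 include 0.

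The heavy chain and the sum of its light chains were higher by similar amounts. The summed level of the 6 light chain genes Slc7a5, Slc7a6, Slc7a7, Slc7a8, Slc7a10 and Slc7a11 was 26.6, 28.5 and 24.2 RPKM in sham and 36.8, 34.4 and 35.4 RPKM in ONC. The level of Slc3a2 divided by that sum was 1.04, 0.998 and 1.05 in sham and 0.982, 1.04 and 1.02 in ONC. These quotients overlapped and all lay near 1. The mix of light chains differed, and Slc7a5 held 32.9%, 30.8% and 29.2% of the sum in sham and 42.3%, 40.1% and 42.0% in ONC. Slc7a8 (LAT2), the most abundant light chain in sham, had a mean of 9.41 RPKM in sham and 10.4 RPKM in ONC (log2 fold change 0.03, edgeR adjusted p = 0.88), and Slc7a6 (y+LAT2) had 6.96 and 7.68 RPKM (0.02, edgeR adjusted p = 0.949). The ratio of Slc7a5 to Slc3a2 itself was higher by 0.44 on the log2 scale, with the groups apart (two-sided exact permutation test, p = 0.1, the smallest possible, adjusted p = 0.167). For Slc7a11 to Slc3a2 the difference was 0.51 and the groups overlapped (exact permutation p = 0.2, adjusted p = 0.25), and it was 0.25 without sham 3. Transcripts per kilobase do not give the number of protein complexes.

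**Figure D3:**
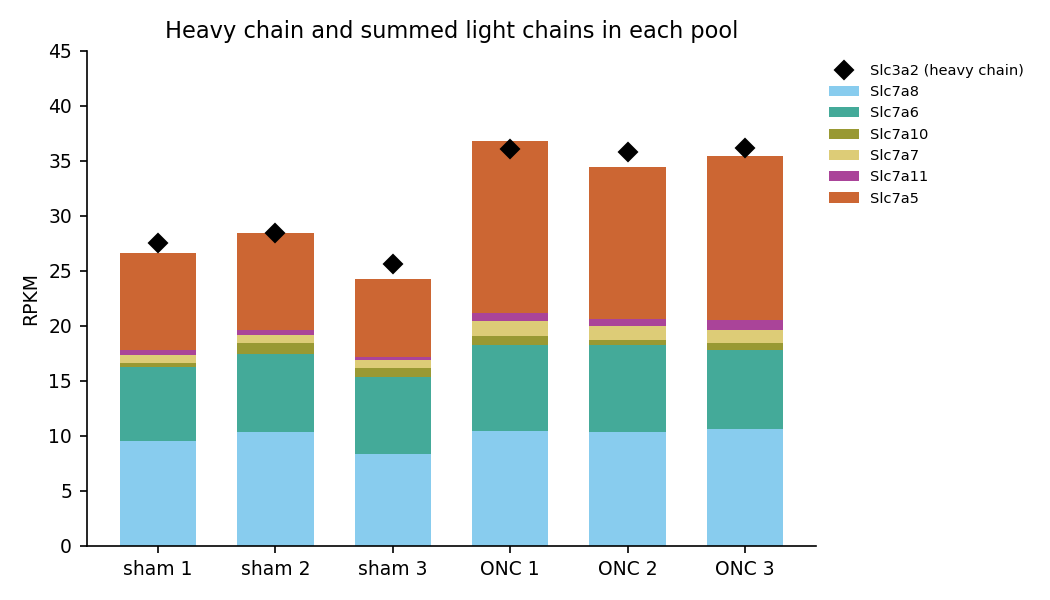
RPKM of the heavy chain Slc3a2 (diamonds) and of 6 light chain genes stacked (bars) in each pool. The diamonds sit near the top of the stack in all pools, and the Slc7a5 segment is taller in the 3 ONC pools.

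Slc1a4 and Slc1a5 encode ASCT1 and ASCT2, sodium-dependent exchangers of small neutral amino acids. ASCT1 moves alanine, serine, cysteine and threonine, and ASCT2 also glutamine. Slc1a4, at chr11:20302180-20332713, had 4.25, 2.66 and 2.84 RPKM in sham and 6.3, 7.08 and 5.53 RPKM in ONC. Sham 1 was above the other sham pools and below all ONC pools. The log2 fold change was 0.84 (SE 0.15, 95% interval 0.53 to 1.14), with an edgeR adjusted p of 0.00136. Slc1a5, at chr7:16781346-16798274, had 3.08, 3.01 and 2.93 RPKM in sham and 2.81, 3.41 and 3.09 RPKM in ONC. Its groups overlapped, and the log2 fold change of -0.08 (95% interval -0.39 to 0.23, edgeR adjusted p = 0.832) turned to 0.04 with the scaling of RPKM. The levels of these paralogues overlapped in sham and were apart after ONC. The ratio of Slc1a4 to Slc1a5 was 1.38, 0.882 and 0.969 in sham and 2.24, 2.08 and 1.79 in ONC, apart by 0.94 on the log2 scale (two-sided exact permutation test, p = 0.1, the smallest possible, adjusted p = 0.167).

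Promoter windows of 300 bases, from 250 before to 50 after the start, were held for 6 of the 10 genes in a RefSeq table on GRCm38.p6. They were searched on both strands for TGATGNAA, the core of the C/EBP-ATF response element that ATF4 is known to bind, whose complement reads TTNCATCA. The windows of Slc7a11 and Slc1a4, a pair of the DEGs, held it and are shown for that reason, 5′ to 3′ on the coding strand, which is the minus strand for both, with the matches in capitals. They span chr3:50443564-50443863 for Slc7a11 and chr11:20332664-20332963 for Slc1a4.
Slc7a11: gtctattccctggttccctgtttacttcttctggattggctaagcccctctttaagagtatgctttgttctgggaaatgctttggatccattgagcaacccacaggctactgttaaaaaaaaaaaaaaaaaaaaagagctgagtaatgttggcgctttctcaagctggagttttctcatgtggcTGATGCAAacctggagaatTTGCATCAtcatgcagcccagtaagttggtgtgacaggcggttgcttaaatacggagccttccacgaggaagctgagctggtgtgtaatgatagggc
Slc1a4: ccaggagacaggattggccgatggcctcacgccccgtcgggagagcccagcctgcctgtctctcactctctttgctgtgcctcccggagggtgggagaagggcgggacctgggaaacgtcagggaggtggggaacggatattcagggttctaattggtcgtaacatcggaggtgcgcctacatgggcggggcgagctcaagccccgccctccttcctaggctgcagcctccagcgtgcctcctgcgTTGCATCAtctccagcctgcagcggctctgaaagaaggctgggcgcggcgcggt
Slc7a11 held 1 match in forward orientation whose first base was at -66 from the start, and 1 on the other strand at -47. Slc1a4 held 1 on the other strand at -4. Of 32851 promoter windows of the same length, 3.97% held at least 1 match and 0.07%, or 23 windows, held 2 or more. Counted by gene, 2 of the 6 held a match, against 4.51% of 27025 genes. The windows of Slc7a1, Slc3a2, Slc38a2 and Slc6a9 held none, which says only that these letters were not in those windows. Slc7a1 and Slc6a9 each had more than 1 window. A match is a description of the sequence, and no binding was measured.

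Slc38a1 and Slc38a2 encode SNAT1 and SNAT2, system A carriers that bring in glutamine and alanine with sodium. SNAT2 is the member known for its response to amino acid starvation. At chr15:96687392-96699698, Slc38a2 had 20.0, 20.1 and 17.2 RPKM in sham and 26.5, 26.0 and 25.0 RPKM in ONC. The groups were apart, the log2 fold change was 0.32 (SE 0.06, 95% interval 0.19 to 0.45) and the edgeR adjusted p 0.00441, with a fold under the threshold. Its neighbour Slc38a1, at chr15:96571418-96642913, had 28.9, 30.3 and 28.3 RPKM in sham and 32.4, 29.7 and 28.9 RPKM in ONC. These overlapped. The log2 fold change of -0.06 (95% interval -0.19 to 0.07, edgeR adjusted p = 0.651) became 0.06 with the scaling of RPKM. The ratio of Slc38a1 to Slc38a2 was 1.45, 1.51 and 1.64 in sham and 1.22, 1.14 and 1.16 in ONC, a difference of -0.38 on the log2 scale with the groups apart (two-sided exact permutation test, p = 0.1, the smallest possible, adjusted p = 0.167).

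Slc6a9 encodes GlyT1, the sodium- and chloride-dependent glycine transporter, which in the retina is known from glycinergic amacrine cells. It lay at chr4:117835258-117869305 and had 42.9, 46.0 and 38.1 RPKM in sham and 50.2, 47.0 and 47.6 RPKM in ONC. The ONC values were just above the sham values, but the log2 fold change on TMM-scaled reads was 0.07 (95% interval -0.06 to 0.20, edgeR adjusted p = 0.618).

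Intron reads, taken as the reads on the whole gene less those on its exons, were compared for the 9 transporters that had enough of them. Slc7a11, with 2 to 14 intron reads per pool, was not tested. Library preparation did not record strand, so reads of an overlapping gene cannot be told apart from these. Slc3a2 had 115, 123 and 152 intron reads in sham and 187, 198 and 224 in ONC. The groups were apart, and the log2 fold change of 0.70 (SE 0.19, 95% interval 0.28 to 1.11, edgeR adjusted p = 0.0962) passed both criteria, as did 0.469% of 11940 genes in that direction. The call was lost on leaving out any 1 pool (edgeR adjusted p from 0.117 to 0.356), with log2 fold changes from 0.64 to 0.77. Over all genes tested, intron reads called 0 without sham 2, 0 without ONC 2, and 0 higher and 1 lower without ONC 3. With the library sizes of the exon reads the value for Slc3a2 was 0.42 (adjusted p = 0.329). Slc6a9 had an intron log2 fold change of 0.33 (95% interval 0.01 to 0.65, edgeR adjusted p = 0.269). It did not pass the test, and its value was 0.08 with the exon library sizes. Over all genes tested, 56 were called higher and 274 lower by intron reads, and 18 and 1293 with the exon library sizes.

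**Figure D4:**
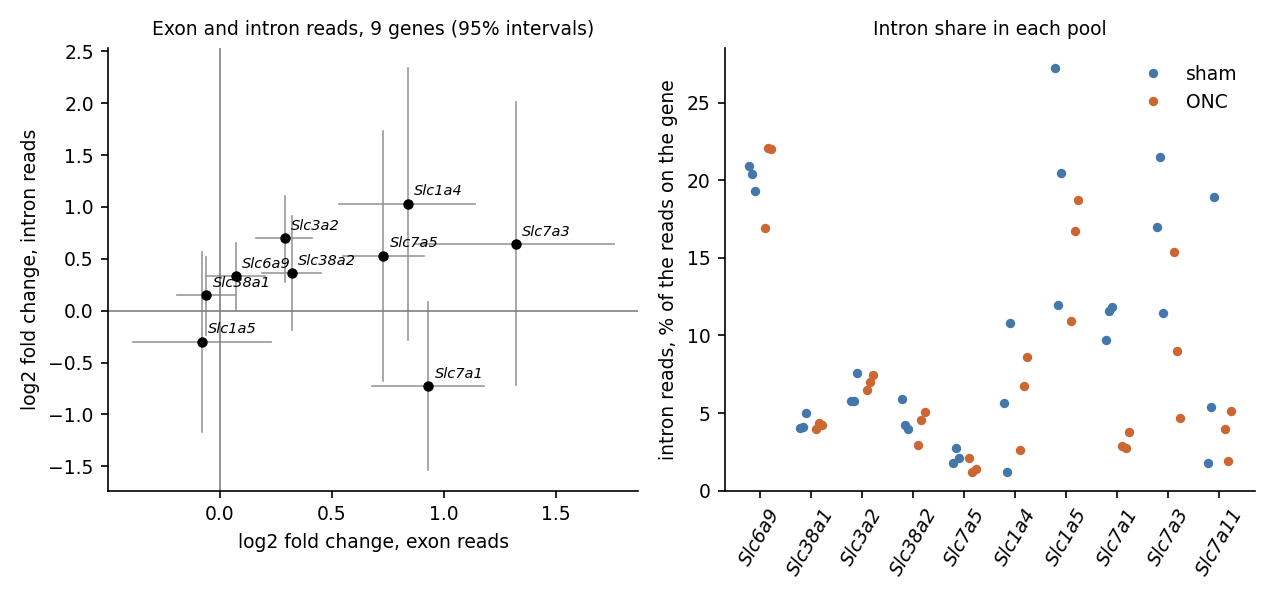
Left, log2 fold changes from exon reads (x) and intron reads (y) for 9 transporters, with 95% intervals from edgeR. Right, intron reads as a percentage of all reads on the gene in each pool. Slc7a1 is higher in exon reads and lies below 0 in intron reads, and its ONC pools have the lower intron share.

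Slc7a1 moved in opposite directions in the 2 kinds of reads. Against its higher exon reads, its intron reads numbered 42, 41 and 53 in sham and 26, 22 and 31 in ONC. The groups did not overlap. The ONC pools had more reads on genes in all, but a smaller share of these lay on introns. Exons held 78.48% to 80.44% of them in ONC and 70.86% to 76.6% in sham. The intron log2 fold change was -0.73 (SE 0.38, 95% interval -1.54 to 0.08, edgeR adjusted p = 0.331) and did not pass the test. Intron reads made up 11.0% ± 1.15 of the reads on Slc7a1 in sham and 3.15% ± 0.554 in ONC (SD, n = 3), without overlap. The intron share was lower in all ONC pools than in all sham pools for 20.3% of the 11352 genes in both fits. Of the 9 transporters in both fits this held for 1, so that this count is no more than the background. Of the other DEGs, Slc7a3, Slc7a5 and Slc1a4 had between 3 and 53 intron reads per pool, with intervals of the intron fold change that included 0 and reached from -0.72 to 2.01 for Slc7a3, from -0.68 to 1.73 for Slc7a5 and from -0.28 to 2.34 for Slc1a4. No change in the intron reads of these genes was detected, and the intervals were wide at this depth.

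The pattern was compared with 51 other amino acid transporter genes, of which 39 passed the filter on RPKM. The 10 and the 51 were set apart with earlier results of these data known, so the contrast may be partly built in. None of the 39 was a DEG by edgeR's test or by DESeq2, and 1 was by limma on log2(RPKM + 0.1). An unadjusted p under 0.05 in edgeR was held by 8, some higher and some lower in ONC. The share of all genes with such a p was not taken, so this count has no background. Over all genes tested, 1.66% were DEGs in either direction by edgeR, so that 0 of 39 is close to that background. Of the 39, 3 passed the adjusted p at any fold, against 6.09% of all genes tested, and the median log2 fold change of the 39 was -0.01, with a range from -0.41 to 0.73. Those 3, named after their values were seen, were the lysosomal transporter Slc38a7 (0.36, edgeR adjusted p = 0.0671), the vesicular glutamate transporter Slc17a6 (0.26, adjusted p = 0.0525) and the synaptic vesicle transporter Slc6a17 (-0.25, adjusted p = 0.0982). The highest estimate was that of Slc7a7 (y+LAT1), a light chain of Slc3a2 also known from macrophages. It had 39, 46 and 43 exon reads in sham and 92, 79 and 76 in ONC, and its groups were apart. Its log2 fold change of 0.73 (SE 0.28, 95% interval 0.15 to 1.32) had an edgeR adjusted p of 0.177, and it became a DEG with the scaling of RPKM (0.86, adjusted p = 0.0756) and with that limma fit. Abundant carriers of glia did not pass the test. Slc38a3 (SNAT3), which exports glutamine from Müller glia, had 165 RPKM in sham and 184 RPKM in ONC (log2 fold change 0.03, edgeR adjusted p = 0.82). Slc1a3 (GLAST), the glutamate transporter of the same cells, had a log2 fold change of 0.08 (edgeR adjusted p = 0.555).

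**Figure D5:**
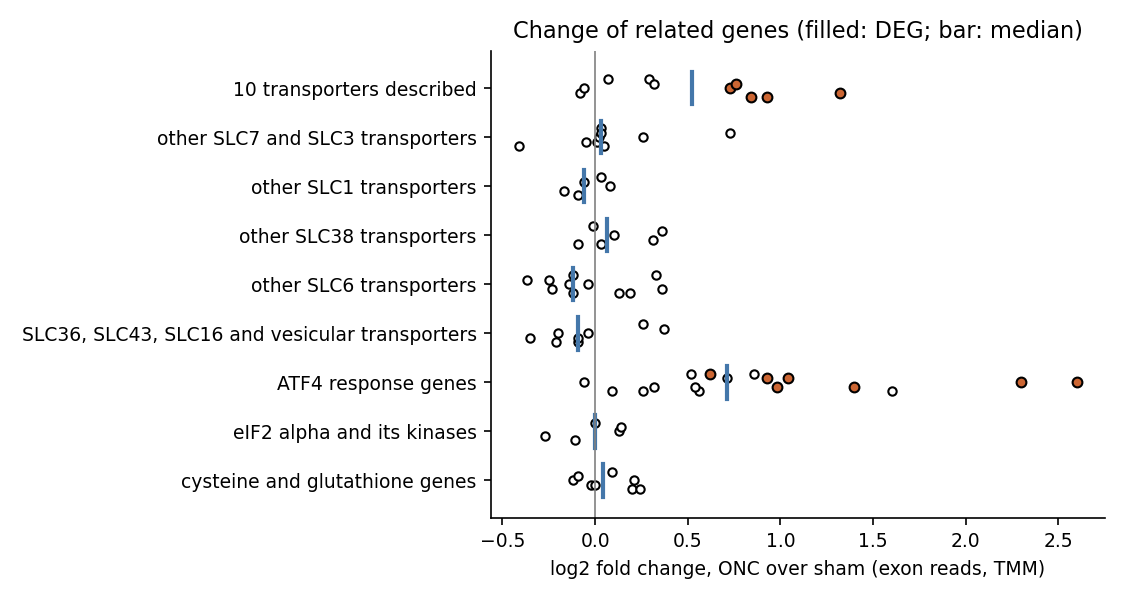
Log2 fold changes (ONC over sham, exon reads, edgeR) of the 10 transporters and of related gene lists. Each point is a gene, filled points are DEGs and vertical bars are list medians, 0.52 for the 10 transporters and 0.71 for the ATF4 response genes.

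Among 18 genes of the ATF4 response, 17 were tested and 7 were DEGs, all higher, with a list median of 0.71. Against these stand 0.827% of all genes tested as DEGs in that direction. The largest estimates among the 7 were those of Chac1, an enzyme that degrades glutathione (log2 fold change 2.60, edgeR adjusted p = 1.67e-08), the transcription factor Atf3 (2.30, adjusted p = 7.95e-08), the pseudokinase Trib3 (1.40, adjusted p = 0.00122) and the transcription factor Atf5 (1.04, adjusted p = 1.3e-05). Ddit3 (CHOP) with 0.98, the asparagine synthetase gene Asns with 0.93 and Sesn2, a leucine sensor, with 0.62 were the other DEGs, and Sesn2 lost its call without ONC 1 (0.57, under the fold threshold). Atf4 itself had 111 RPKM ± 9.7 in sham and 179 RPKM ± 6.53 in ONC (SD, n = 3). Its log2 fold change of 0.56 (SE 0.06, edgeR adjusted p = 2.74e-06) was just under the fold threshold. Atf4 became a DEG with the scaling of RPKM (0.68) and without sham 1 (0.60). Ddit4, an inhibitor of mTORC1, had a log2 fold change of 0.09 (adjusted p = 0.531). Slc7a1, Slc1a4, Slc7a11 and Slc7a5 had estimates between those of Sesn2 and Ddit3. The whole list ran from -0.06 to 2.60, a range so wide that Slc6a9 (0.07) also lay in it. A place within it is therefore not particular to these transporters. A promoter window was held for 17 of the list's genes, and 7 of these (41.2%) had the TGATGNAA motif, against 4.51% of 27025 genes. The list was made up of genes known as ATF4 targets and was fixed with earlier results of these data known. Its count of DEGs is therefore a description and not separate evidence. None of 5 genes for eIF2 alpha and its kinases was a DEG by edgeR, DESeq2 or limma, and 0 had an unadjusted p under 0.05 in edgeR. Eif2ak4, which encodes the amino acid sensor GCN2, had a log2 fold change of 0.14 (edgeR adjusted p = 0.55). With DEGs at 1.66% of all genes, a count of 0 in a list this short is close to the background. None of 8 genes for cysteine and glutathione was a DEG by these tools either, and 1 had an unadjusted p under 0.05 in edgeR. This was Gclc, the catalytic subunit for the first step of glutathione synthesis (0.20, adjusted p = 0.254). For the unadjusted counts of both lists, the share of all genes was not taken either. Gpx4, a glutathione peroxidase of lipids, had a log2 fold change of 0.09 (adjusted p = 0.482), and for it 55.8% of exon reads were unique.

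Markers of some cell types differed between the groups as well, and their part in the transporter values was not tested. The summed level of 8 RGC markers was 416 to 435 RPKM in sham and 298 to 316 RPKM in ONC, and 5 of them were DEGs, all lower. Over all genes tested, 1.66% were DEGs in either direction. Microglial markers summed to 9.02 to 11.3 RPKM in sham and 13.9 to 16.4 RPKM in ONC, with C1qa alone at means of 4.56 and 7.5 RPKM. Aif1 had a log2 fold change of -0.32, and Tmem119, Csf1r, Cx3cr1 and P2ry12 had 0.23, 0.41, 0.49 and 0.95. None of these passed the test. The DEGs were 2 of 7, C1qa and Itgam. Without single pools these calls were lost, for C1qa without sham 1, sham 2, ONC 2 or ONC 3 (adjusted p from 0.189 to 0.326) and for Itgam without any pool but sham 1 (0.109 to 0.307). Müller glia markers summed to 932 to 1030 RPKM in sham and 1040 to 1050 RPKM in ONC, rod markers to 16300 to 16800 and 16800 to 18300 RPKM, and markers of astrocytes and reactive glia to 7.89 to 9.96 and 10.2 to 14.1 RPKM. None of these markers was a DEG, and the higher sums did not hold with TMM scaling, by which the Müller glia sum was lower in ONC and the others overlapped. The median log2 fold change was -0.03 over the 6 Müller glia markers and -0.03 over the 4 rod markers. Endothelial markers, whose cells carry LAT1 and CAT-1 at the blood-retina barrier, overlapped between the groups, at 27.6 to 30.3 RPKM in sham and 26.4 to 32.7 RPKM in ONC. Most of that sum was Kdr, with means of 19.9 RPKM in sham and 20.8 RPKM in ONC. The 5 markers had a median log2 fold change of -0.27 (range -0.35 to 0.37), and none was a DEG. Of 3 blood markers, the hemoglobin gene Hba-a1 was a DEG in the lower direction, with 135, 65.9 and 55.5 RPKM in sham and 41.0, 53.8 and 44.3 RPKM in ONC (log2 fold change -0.99, edgeR adjusted p = 0.00512). Sham 1 stood far above the rest, and without it the value was -0.54, under the fold threshold. Of its exon reads, 28.7% were unique. No marker of these lists was at 0 in all samples.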

How the data were processed

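The authors isolated RNA from whole retinas, pooled it and mapped the reads with CLC Genomics Workbench to a genome they name as mm9, while the deposited gene positions match GRCm38. Per the file headers, they deposited read counts, not normalized, for the exons of each gene and for the gene with its introns, both for all reads and for unique reads. The authors also deposited RPKM, divided by all reads on genes. Exon lengths, exon numbers and positions were used as deposited. The samples held 17343945 to 20358008 exon reads, and the depth sets the precision of genes with few reads. Groups and replicate numbers came from the labels, in which ONC is called NC.

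Exon counts of the 13670 genes whose mean RPKM exceeded 0.3 in either group were compared between conditions, without other terms, by edgeR 4.0.16 under R 4.3.3 (TMM and its quasi-likelihood test), and p-values were adjusted by Benjamini-Hochberg over these genes. Intron reads were tested likewise over 11940 genes with enough reads for edgeR's filterByExpr. The SE is the log2 fold change over the square root of F. The tests were checked on simulated counts. Ratios were compared by two-sided exact permutation tests.

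Alternatives were DESeq2 1.42.0 (its size factors and its Wald test), the scaling of RPKM, limma 3.58.1 on log2(RPKM + 0.1) and log2(RPKM + 1), other filters, unique exon reads, gene reads, other thresholds, the replicate number as a block and leaving out each sample. Alternatives for the shares and sums were chosen after the data were seen. All 10 transporters are named, with up to 4 DEGs and 2 other genes of high level per list. Further listed genes, such as Ddit3, Asns, Sesn2, Eif2ak4 and those said to be named after their values were seen, were added outside that rule. Members and lists were chosen with earlier results of these data known. Protein sequences were not used here.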

Additional observations from a re-analysis of the deposited data

How the results depend on the processing

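Of the 10 transporters, 5 were DEGs by exon reads, and 4 wherever Slc7a11 lost its call. Slc7a11 lost it at an adjusted p under 0.05, with limma (log2 fold change 0.76 and 0.32 with pseudocounts of 0.1 and 1), and without sham 2, sham 3 or ONC 3, and it was not tested with a mean RPKM above 1. By intron reads 1 transporter (Slc3a2) was called. The count was 0 with the exon library sizes, with the replicate block or on leaving out any 1 sample (range 0 to 0). On leaving out 1 sample the log2 fold change of Slc3a2 stayed between 0.64 and 0.77. Over all genes, intron reads called 0 without sham 2, 0 without ONC 2, and 0 higher and 1 lower without ONC 3. Without sham 1, sham 3 or ONC 1 they called 167, 19 or 49 higher. The cause of the lost calls was not tested. Same-numbered samples did not deviate together (correlations of -0.047, -0.033 and 0.003), so the replicate block is given here only, and with it the exon DEGs of all genes numbered 111 higher and 111 lower instead of 113 and 114. The scaling of RPKM moved the median log2 fold change of all genes from 0.01 to 0.13 and gave 263 higher and 87 lower DEGs. With it the listed genes called rose from 7 to 11 (Atf4, Gdf15, Nupr1 and Slc7a7 were added), and 1 other amino acid transporter was called. Total gene reads gave 114 and 228.

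Small changes turned sign. By exon reads, Slc1a5 was at 0.04, 0.04 and 0.03 and Slc38a1 at 0.06, 0.06 and 0.05 with the scaling of RPKM and limma with pseudocounts of 0.1 and 1. On leaving out 1 sample, values ran from -0.01 to 0.08 for Slc7a8, from -0.02 to 0.08 for Slc38a3, from -0.04 to 0.16 for Slc7a2 and from -0.04 to 0.07 for Slc7a6. By intron reads, Slc1a5 ran from -0.6 to 0.14 (without sham 2 and sham 1), and Slc38a1 was at -0.14 with the exon library sizes. Slc7a5 gained between 9.6 and 11.4 points of the light chains on leaving out any 1 sample. The replicate block also ended the call of C1qa (adjusted p = 0.108), as did the DESeq2 Wald test (0.58, under the fold threshold), and that test ended the call of Hba-a1 (adjusted p = 0.121). Depth limits the intron reads of Slc7a3, Slc7a5 and Slc1a4, and 3 pools a group cannot give an exact permutation p under 0.1.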
